A study of Mus musculus with 7 samples.

Results

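C-type lectin receptors are pattern-recognition receptors through which macrophages bind sugars and lipids of fungi, mycobacteria and dying cells. One set, among them Dectin-1, Dectin-2 and Mincle, signals through the kinase Syk and the adaptor Card9, either by its own tail or through the adaptors FcRγ (Fcer1g) and DAP12 (Tyrobp). Another set carries inhibitory tyrosine motifs in its tail that recruit phosphatases. In the lung these receptors take part in the sensing of fungi and mycobacteria by macrophages.

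The genes described here are 10 of the 47643 in the deposited table, taken by name: Clec4n, Clec4d, Clec4e, Clec7a, Clec5a, Clec12a, Clec4a2, Clec4a3, Clec4a1 and Cd93. All 10 had a row, and 9 reached the mean of 1 TPM required for testing, as did 11397 genes in all. RNA came from mouse lung alveolar macrophages, sorted as positive for CD11c, F4/80 and SiglecF according to the WT labels. Of the 7 libraries, 3 were cSiah1a/2f/f::Lyz2cre, with conditional alleles of the ubiquitin ligase genes Siah1a and Siah2 and a Cre expressed from the lysozyme M locus Lyz2, which is active across myeloid cells (called Lyz2cre here). Another was cSiah1a/2f/f::CD11ccre, with the same alleles and Cre driven by the promoter of CD11c, which alveolar macrophages and dendritic cells use (CD11ccre, n = 1). The remaining 3 were WT, without a statement in the labels on whether they carried a Cre. The labels give no age, sex or strain. They also leave unsaid whether each replicate is its own animal, so p-values here reflect spread between libraries that may be technical. The comparison asks how loss of both ligases alters the macrophages.

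Values are TPM (shares of a library corrected for gene length, scaled to a sum of 1000000), which keep no record of sequencing depth. The depth is therefore unknown and no counting interval is given. Siah1a was at 0 to 0.05 TPM in Lyz2cre, 0 in CD11ccre and 6.72 to 16.59 TPM in WT. Siah2 was at 1.45 to 1.95 TPM in Lyz2cre, 1.21 TPM in CD11ccre and 12.69 to 17.33 TPM in WT. All 16 alveolar macrophage markers examined averaged at least 1 TPM in each genotype, but 5 were higher and 5 lower in Lyz2cre against WT. Over all genes 2.17% were called higher and 4.60% lower. The higher markers were Marco (log2 difference 1.83), Chil3 (1.48), Car4 (1.37), Cd68 (0.68) and Plet1 (0.55). The lower ones were Ear1 (-2.39), Fabp1 (-1.85), Cidec (-1.31), Ear2 (-1.28) and Siglecf. Siglecf, the gene of a sort marker, was at 107, 81.3 and 65.5 TPM in Lyz2cre, 53.9 TPM in CD11ccre, and 226, 211 and 257 TPM in WT (log2 difference -1.46 between Lyz2cre and WT, adjusted p = 0.00746). The part of these marker differences in the receptor results was not tested. Lyz2 stood at 46.62 to 61.89 TPM in Lyz2cre, 50676 TPM in CD11ccre and 72.56 to 86.25 TPM in WT. The WT libraries thus lay near Lyz2cre and far from CD11ccre at this locus, so in CD11ccre against WT the state of Lyz2 and the loss of Siah1a and Siah2 cannot be told apart. Mitochondrial transcripts took 2.67% to 4.61% of the sum in Lyz2cre, 4.23% in CD11ccre and 7.54% to 9.25% in WT. Ftl1, Fth1 and Chil3 together took 14.4% to 16.3% in Lyz2cre, 14% in CD11ccre and 4.90% to 5.29% in WT. The median log2 difference of all genes tested was -0.16 in Lyz2cre against WT and -0.29 in CD11ccre against WT, and the differences below are as fitted, before any such shift is taken off.

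The receptor genes differed from WT in both directions. Clec4n, Clec4d, Clec5a and Cd93 rose in Lyz2cre against WT, by 1.94-fold to 4.98-fold as ratios of mean TPM. Clec12a, Clec4a2 and Clec4a3 fell, to between 0.248 and 0.478 of the WT mean. Clec4e and Clec7a averaged higher in Lyz2cre without passing the test. In limma's moderated test on log2(TPM + 1), with Benjamini-Hochberg adjustment over all 11397 genes and a threshold of 0.05, 4 of the 9 tested genes were higher and 3 lower. Over all genes the shares called were 2.17% higher and 4.60% lower, 6.76% together. Over all genes the split was 247 higher and 524 lower, but 340 higher and 205 lower with median-of-ratios scaling, under which the 9 receptor genes gave 6 higher and 3 lower calls. The median log2 difference of the 9 genes was 0.95. Relative to the median of all genes, the called genes stood at 1.11 to 2.46 and at -1.76 to -0.90. In bulk RNA, a change in the share of cells that carry a transcript and a change in its level per cell cannot be told apart.

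**Figure D1:**
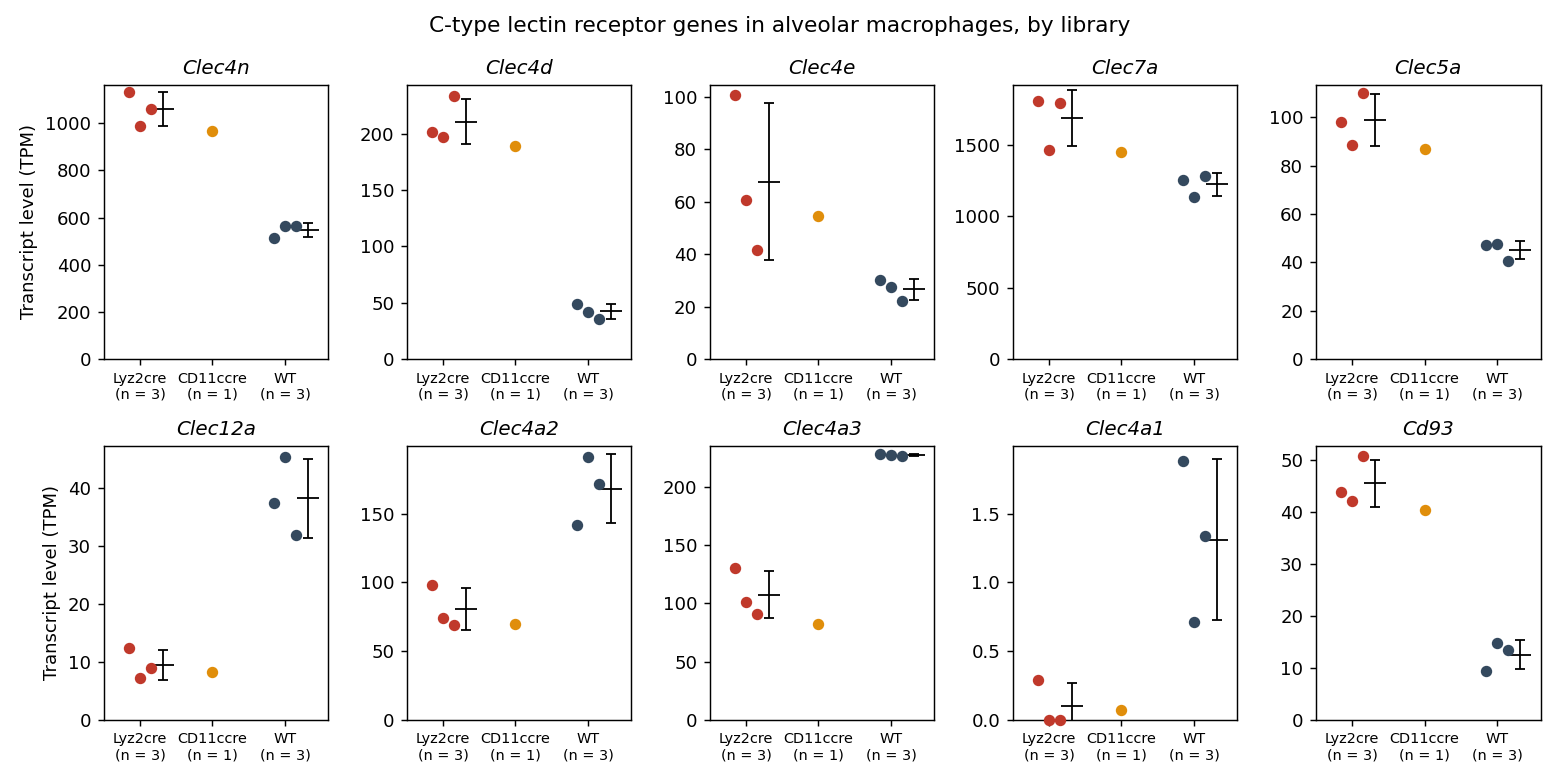
Transcript level in TPM (y axis, from 0, with its own scale in each panel) of the 10 genes in Lyz2cre, CD11ccre and WT libraries. Points are libraries and bars are the mean ± SD of 3. The Lyz2cre and WT points do not overlap in any panel, and CD11ccre lies on the Lyz2cre side of WT throughout.

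By level, Clec7a came first and Clec4n next in every genotype. Clec7a averaged 1690 TPM in Lyz2cre, 1450 TPM in CD11ccre and 1225 TPM in WT. Clec4d was in place 3 in Lyz2cre at 210 TPM, with a range apart from those of its neighbours. In WT it was in place 6 at 42.3 TPM, within the ranges of Clec5a above it and Clec12a below it. Places 3 and 4 in WT belonged to Clec4a3 at 228 TPM and Clec4a2 at 168 TPM. In Lyz2cre the genes in places 4 to 8, Clec4a3, Clec5a, Clec4a2, Clec4e and Cd93, each overlapped in range with the next. Clec12a was in place 9 and Clec4a1 last in Lyz2cre and in CD11ccre.

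Dectin-2, encoded by Clec4n, binds fungal mannans and signals through FcRγ. Its level was 1131, 988 and 1058 TPM in the Lyz2cre libraries, 968 TPM in CD11ccre, and 512, 563 and 564 TPM in WT. Every Lyz2cre and CD11ccre library lay well above the highest WT library. The means were 1059 ± 71.5 TPM in Lyz2cre and 546 ± 29.5 TPM in WT (SD, n = 3 each), a log2 difference of 0.95 ± 0.10 (SE, adjusted p = 0.00390).

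Clec4d encodes MCL, a receptor for the mycobacterial cord factor that in mice pairs with Mincle or Dectin-2. It had 201, 197 and 233 TPM in Lyz2cre, 189 TPM in CD11ccre, and 49.0, 42.0 and 35.8 TPM in WT. The gap between the lowest Lyz2cre library and the highest WT library was many times the spread within either genotype. At 4.98-fold, from 210 ± 20.0 TPM in Lyz2cre and 42.3 ± 6.62 TPM in WT (SD, n = 3 each), this was the largest ratio among the genes that were higher in Lyz2cre. The log2 difference was 2.3 ± 0.15 (SE, adjusted p = 0.000782).

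Clec4e encodes Mincle, the inducible cord factor receptor. It had 101, 60.7 and 41.8 TPM in Lyz2cre, 54.7 TPM in CD11ccre, and 30.3, 27.3 and 22.2 TPM in WT. The Lyz2cre libraries differed among themselves by more than the lowest of them differed from WT, though the groups did not overlap. The log2 difference of 1.23 ± 0.30 (SE) missed the threshold (adjusted p = 0.0548) and was called under 5 of 17 alternative settings, at adjusted p from 0.0354 to 0.158 over all of them. The ratio of Clec4d to Clec4e was 2.00, 3.24 and 5.59 in Lyz2cre, 3.46 in CD11ccre, and 1.62, 1.54 and 1.61 in WT. All 4 libraries with deleted ligases had a ratio above the narrow WT range.

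Clec4d and Clec4e lie tail to tail on chromosome 6, so their start sites are separate. The 250 bases before each RefSeq start (GRCm38.p6) are shown because this neighbouring pair had the largest log2 differences of the Syk-coupled receptors described here. Capitals mark the matches to the motifs searched. The first window is chr6:123261857-123262106 on the plus strand and the second chr6:123289872-123290121 on the minus strand.
Clec4d: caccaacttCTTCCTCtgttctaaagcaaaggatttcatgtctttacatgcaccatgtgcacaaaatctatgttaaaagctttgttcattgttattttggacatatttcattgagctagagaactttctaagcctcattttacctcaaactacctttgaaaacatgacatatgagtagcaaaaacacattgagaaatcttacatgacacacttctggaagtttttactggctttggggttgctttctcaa
Clec4e: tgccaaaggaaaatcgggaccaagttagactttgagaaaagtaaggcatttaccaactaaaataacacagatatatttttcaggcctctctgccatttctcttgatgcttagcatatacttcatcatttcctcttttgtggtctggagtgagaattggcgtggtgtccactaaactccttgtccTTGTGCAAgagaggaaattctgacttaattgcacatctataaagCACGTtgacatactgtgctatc
The Clec4d window holds a PU.1 match, on the minus strand at positions -241 to -235 from the start. The Clec4e window holds a C/EBP match at -66 to -59 and a match to the core of the hypoxia response element at -22 to -18, both on the minus strand.

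The search used 6 motifs on both strands, PU.1 (GAGGAAG), C/EBP (TTGCNNAA), AP-1 (TGANTCA), the E-box (CACGTG), the antioxidant response element (TGACNNNGC) and the hypoxia response element (ACGTG, which the E-box contains). RefSeq windows were at hand for 8 of the 10 genes, all but Clec4n and Cd93. PU.1 matches stood in 4 of the 8 (Clec4d, Clec5a, Clec12a, Clec4a1), against 12% of 27025 genes. These 4 include genes that were higher and genes that were lower in Lyz2cre. C/EBP matches stood in Clec4e and Clec12a, against 10.8% of all genes. Clec12a held the only AP-1 match (7.82% of all genes) and Clec4e the only hypoxia response element match (18.5%). None of the 8 held the E-box (6.86%) or the antioxidant response element (11.5%). A match describes letters in this window and is not evidence of binding.

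Clec7a encodes Dectin-1, the receptor for fungal β-glucan, which signals through a single tyrosine motif in its own tail. It was the most abundant of the 10, with 1810, 1466 and 1793 TPM in Lyz2cre, 1450 TPM in CD11ccre, and 1256, 1133 and 1286 TPM in WT. All Lyz2cre libraries lay above all WT libraries, but the lowest of them, at 1466 TPM, was close to CD11ccre. The log2 difference of 0.46 ± 0.12 (SE) between Lyz2cre and WT missed the threshold (adjusted p = 0.0581) and was called under 5 of 17 settings. It was 0.64 with median-of-ratios scaling (adjusted p = 0.0272), its range over all settings being 0.40 to 0.66 with adjusted p from 0.0272 to 0.184. The deposited table gives this gene the biotype polymorphic pseudogene, as does GENCODE M21.

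Clec5a encodes MDL-1, which signals through DAP12 and binds flaviviruses. It had 97.9, 88.4 and 110 TPM in Lyz2cre, 86.8 TPM in CD11ccre, and 47.2, 47.6 and 40.7 TPM in WT, with a clear gap between the genotypes. The log2 difference was 1.11 ± 0.13 (SE, adjusted p = 0.00594).

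Cd93 encodes a transmembrane protein with a C-type lectin-like domain, known on endothelium and myeloid cells. It had 43.8, 42.1 and 50.6 TPM in Lyz2cre, 40.2 TPM in CD11ccre, and 9.46, 14.8 and 13.4 TPM in WT. The lowest library with deleted ligases was still well above the highest WT library. Its mean was 3.63-fold higher, with a log2 difference of 1.80 ± 0.19 (SE, adjusted p = 0.00400).

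Cd93 is also an endothelial gene, so endothelial markers were set beside it. The sum of 10 endothelial markers was 88.1 to 127 TPM in Lyz2cre, 73.1 TPM in CD11ccre and 30.7 to 59.9 TPM in WT. Nearly all of this was Vwf, at 88.0, 88.0 and 126 TPM in Lyz2cre, 71.7 TPM in CD11ccre, and 41.1, 59.5 and 29.4 TPM in WT. The other markers, among them Cdh5, Kdr and Pecam1, averaged below 1 TPM in every genotype, and Emcn was listed at 0 in every library.

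MCL, Mincle and MDL-1 are known on neutrophils and monocytes. The sum of 13 neutrophil markers was 127 to 170 TPM in Lyz2cre, 152 TPM in CD11ccre and 55.0 to 107 TPM in WT. S100a8 was higher in Lyz2cre (log2 difference 2.01, adjusted p = 0.00985) and Csf3r lower (-1.27, adjusted p = 0.0392, called under 5 of 17 settings). Mmp8 (0.78, adjusted p = 0.0612), Cxcr2 (0.82, 0.206) and Ltf (0.17, 0.908) averaged higher in Lyz2cre without passing. Mmp8 averaged 22.4 TPM in Lyz2cre and 12.6 TPM in WT, and was at 45.9 TPM in CD11ccre. S100a9 averaged lower without passing (log2 difference -1.89, adjusted p = 0.117). It had 6.9, 5.14 and 1.16 TPM in Lyz2cre, 1.62 TPM in CD11ccre, and 37.9, 10.7 and 10.8 TPM in WT. S100a8 made most of the sum in Lyz2cre, at 80.9, 95.1 and 127 TPM there and 26.1, 15.6 and 32.9 TPM in WT. S100a8 missed the threshold without Lyz2cre replicate 2 (adjusted p = 0.0509) or 3 (0.0515), while Ly6g, Camp, Ngp and Elane were listed at 0 in every library. The sum of 14 monocyte and interstitial macrophage markers was 18 to 26.6 TPM in Lyz2cre, 21.5 TPM in CD11ccre and 19.5 to 30.3 TPM in WT. The part of the S100a8 and Vwf differences in the receptor results was not tested.

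Among the tested genes described here, Clec12a and Clec4a2, whose receptors carry an inhibitory tyrosine motif, were lower in Lyz2cre. So was Clec4a3, whose receptor lacks the motif. Whether direction follows signalling type was not tested. Clec12a, encoding MICL, a receptor for uric acid crystals of dead cells, had 12.3, 7.22 and 8.86 TPM in Lyz2cre, 8.17 TPM in CD11ccre, and 37.3, 45.3 and 31.8 TPM in WT. The highest Lyz2cre library lay far below the lowest WT library. The WT mean of 38.1 ± 6.79 TPM (SD, n = 3) was 4.03 times the Lyz2cre mean of 9.47 ± 2.61 TPM (SD, n = 3), and the log2 difference was -1.92 ± 0.22 (SE, adjusted p = 0.00580).

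Clec4a2 encodes DCIR1, the mouse receptor closest to human DCIR. It had 97.8, 74.2 and 69.3 TPM in Lyz2cre, 70.0 TPM in CD11ccre, and 142, 191 and 171 TPM in WT. The groups did not overlap, and the WT libraries were the more spread. The log2 difference was -1.06 ± 0.17 (SE, adjusted p = 0.0161). Of the 7 calls it was the least secure. The adjusted p was 0.0705 without Lyz2cre replicate 2, 0.0726 without Lyz2cre replicate 3, 0.0725 without WT replicate 2 and 0.0597 without WT replicate 3, at differences of -0.96 to -1.04. It was 0.0609 with no filter on low values. The processed pseudogene Gm44132 lies within Clec4a2 on the same strand, and 3.24% of the 75-base windows of Clec4a2 transcripts also occur in Clec4a4 or Clec4b1. The other 9 genes shared no such window with another gene.

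Clec4a3 and Clec4a1 encode DCIR3 and DCIR4, relatives of DCIR1 without the inhibitory motif. Clec4a3 had 130, 101 and 91.2 TPM in Lyz2cre, 82.6 TPM in CD11ccre, and 228, 228 and 227 TPM in WT. The WT libraries were almost equal and far above the rest. The log2 difference was -1.09 ± 0.14 (SE, adjusted p = 0.00888). Its promoter, from the lower side of the same gene cluster, is shown beside those above. The window is chr6:122952265-122952514 on the plus strand, and none of the 6 motifs was found in it.
Clec4a3: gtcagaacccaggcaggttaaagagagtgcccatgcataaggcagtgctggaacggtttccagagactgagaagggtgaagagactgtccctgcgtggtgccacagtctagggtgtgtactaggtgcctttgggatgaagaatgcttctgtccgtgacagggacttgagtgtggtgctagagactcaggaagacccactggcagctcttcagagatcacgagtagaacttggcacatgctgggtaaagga
Clec4a1 was near the limit of detection, at 0.29 TPM in Lyz2cre replicate 1, listed at 0 in the other two, 0.07 TPM in CD11ccre, and 1.88, 0.71 and 1.34 TPM in WT. It was too low to be tested. In a fit without the filter on low values its log2 difference was -1.05 (adjusted p = 0.101).

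DCIR1 and MICL are known on dendritic cells as well as macrophages. The sum of 11 dendritic cell markers was 8.03 to 13.8 TPM in Lyz2cre, 10.9 TPM in CD11ccre and 17.0 to 34.3 TPM in WT, and 8 of the 11 averaged below 1 TPM over all libraries. Batf3 made most of the difference, at 0.45, 0.54 and 1.95 TPM in Lyz2cre, 1.92 TPM in CD11ccre, and 18.1, 22.3 and 4.20 TPM in WT. Flt3 was listed at 0 in the WT libraries. B cell markers summed to 0.420 to 2.76 TPM in Lyz2cre, 1.70 TPM in CD11ccre and 6.96 to 17.6 TPM in WT. The part of these differences in the lower receptor levels was not tested.

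**Figure D2:**
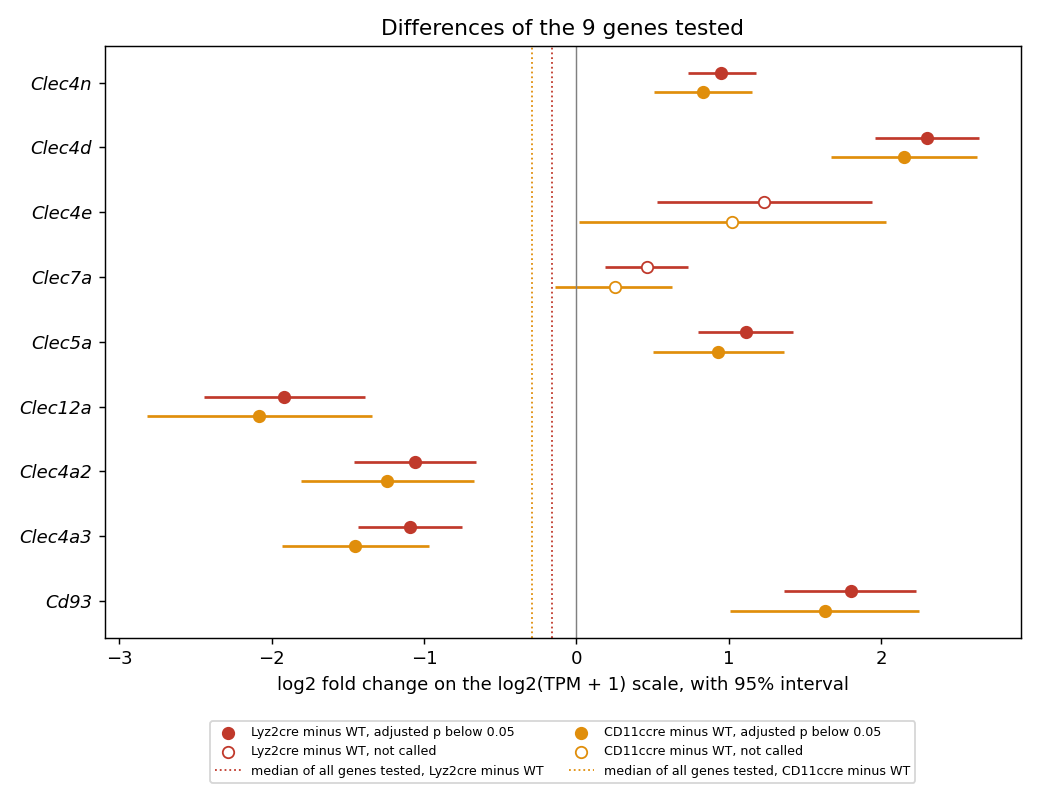
Log2 fold change on the log2(TPM + 1) scale (x axis) of the 9 genes tested, for Lyz2cre minus WT and CD11ccre minus WT, with 95% intervals. Filled points passed the threshold, and dotted lines are the medians of all genes tested, -0.16 and -0.29. The points of Clec12a, Clec4a2 and Clec4a3 lie left of 0 and those of the other 6 genes right of it.

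Summed by signalling type, the 5 receptors that couple to Syk (Clec4n, Clec4d, Clec4e, Clec5a, Clec7a) reached 3341, 2800 and 3237 TPM in Lyz2cre, 2748 TPM in CD11ccre, and 1895, 1812 and 1948 TPM in WT. Clec4a2 and Clec12a together reached 110, 81.4 and 78.2 TPM in Lyz2cre, 78.2 TPM in CD11ccre, and 179, 237 and 203 TPM in WT. These inhibitory receptors held 3.04%, 2.69% and 2.26% of the summed level of the 10 genes in Lyz2cre, 2.65% in CD11ccre, and 7.74%, 10.3% and 8.49% in WT. The WT range lay wholly above the others. Clec7a, not called in Lyz2cre against WT, held on average 50.1% of this level in Lyz2cre, 49.2% in CD11ccre and 52.5% in WT. Clec4n held 31.5%, 32.8% and 23.4%. Receptors outside the 10 were not placed by signalling type or summed, so the sums hold only for the genes taken. Among them Clec1b (18.7 against 56.5 TPM) and Clec4b1 (26.3 against 60.0 TPM) averaged lower in Lyz2cre than in WT. Olr1 (194 against 87.3 TPM) and Thbd (81.9 against 31.8 TPM) averaged higher. Within the library, the ratio of Clec4n to Clec4a2 was 11.6, 13.3 and 15.3 in Lyz2cre, 13.8 in CD11ccre, and 3.61, 2.94 and 3.29 in WT, a comparison that scaling between libraries does not touch. The ratio of Clec4a3 to Clec4a2 averaged 1.34 ± 0.0208 in Lyz2cre and 1.37 ± 0.215 in WT (SD, n = 3 each) and was 1.18 in CD11ccre.

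**Figure D3:**
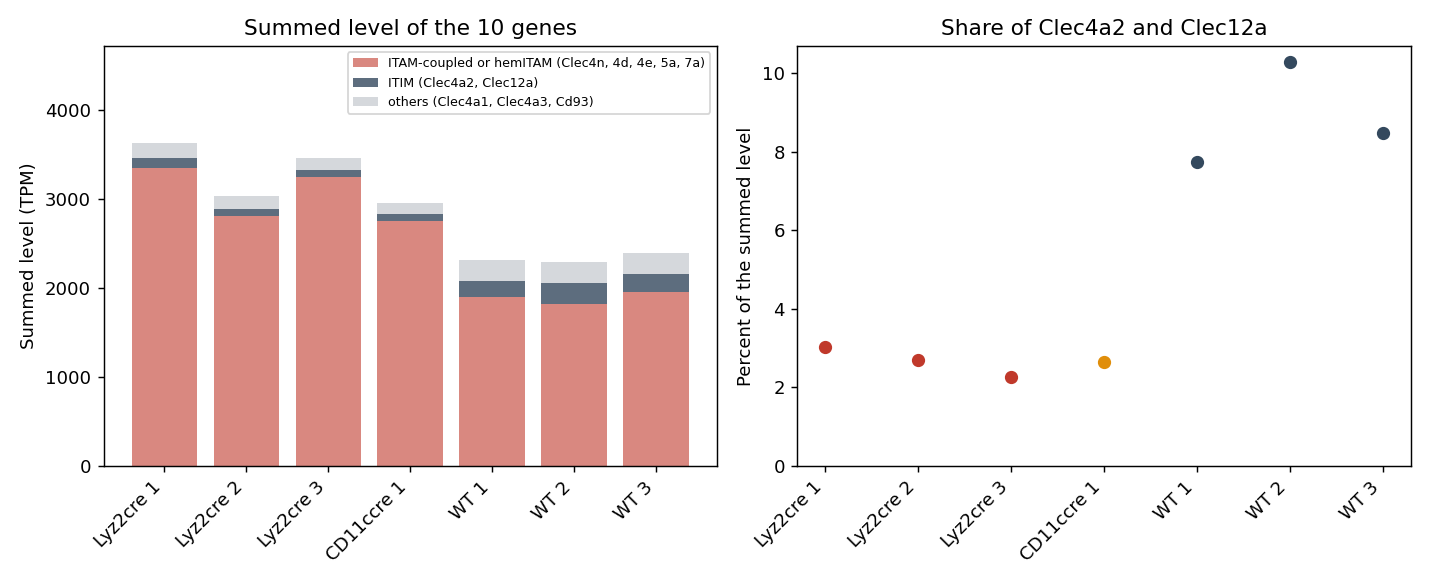
Left, summed level in TPM of the 10 genes in each library, stacked by type (Syk-coupled, inhibitory, others). Right, percent of that sum from Clec4a2 and Clec12a. The inhibitory share was 2.26% to 3.04% in Lyz2cre, 2.65% in CD11ccre and 7.74% to 10.3% in WT.

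In the CD11ccre library the same genes stood apart from WT. Of the 9 genes tested, 4 were higher (Clec4n, Clec4d, Clec5a, Cd93) and 3 lower (Clec12a, Clec4a2, Clec4a3), where 0.895% of all genes were called higher and 1.99% lower, 2.89% together. The split over all genes was 102 higher and 227 lower, but 153 and 85 with median-of-ratios scaling. The log2 differences of the called genes were 0.83 for Clec4n (adjusted p = 0.0304), 2.15 for Clec4d (0.00707), 0.93 for Clec5a (0.0480) and 1.63 for Cd93 (0.0292). On the lower side they were -2.08 for Clec12a (adjusted p = 0.0245), -1.24 for Clec4a2 (0.0469) and -1.45 for Clec4a3 (0.0190). Clec4e at 1.02 (adjusted p = 0.215) and Clec7a at 0.25 (0.414) did not pass. The median of the 9 was 0.83. Relative to the median of all genes, the called genes stood at 1.12 to 2.44 and at -1.79 to -0.95. Both comparisons use the same WT libraries, so they do not check each other.

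With 1 CD11ccre library, the error comes from the spread within the other genotypes and the library is assumed to vary like them. The calls were fragile. Clec4a2 was called under 3 of 16 alternative settings and Clec5a under 6. Clec4a2 was no longer called with median-of-ratios scaling, quantile normalization or rescaling without abundant genes, at log2 differences of -0.92, -0.97 and -1.07. Counting both directions, 3, 2 and 2 genes were called without Lyz2cre replicates 1, 2 and 3, and 1, 0 and 1 without WT replicates 1, 2 and 3. Without the mean-variance trend 1 was called. The differences kept their sign under every setting run, and each of the 9 CD11ccre values lay outside the WT range, as did 63.5% of all genes tested.

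Set directly against Lyz2cre, CD11ccre gave no call among the 9 genes by limma, where 0.114% of all genes were called (0.0439% higher, 0.0702% lower). At an unadjusted p under 0.05 the count was 0 of 9, beside 6.1% of all genes. With 9 genes, both counts of 0 are near the background. The log2 differences ran from -0.36 (Clec4a3) to -0.13 (Clec4n), beside a median of -0.12 over all genes, and the 95% intervals spanned -1.21 to 0.79. The CD11ccre value lay within the Lyz2cre range for Clec4e, Clec12a and Clec4a2 and below it for the other 6. It lay within that range for 45.3% of all genes.

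Between Lyz2cre and WT no library of one genotype crossed into the other for any of the 9 genes tested, 6 higher and 3 lower. Such separation held for 30.8% of all genes tested, 7.45% higher and 23.3% lower. Exact two-sided permutation tests on mean TPM gave p = 0.1 for each of the 10 genes, the smallest value that 3 against 3 libraries allow.

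Of the 10 genes, 9 lie on chromosome 6 (mm10, GENCODE M21) and 6 of these form the Clec4 cluster. Clec5a is apart at chr6:40574894-40585821 on the minus strand, and Cd93 is on chromosome 2 at chr2:148436640-148443563 on the minus strand. From the left the cluster holds Clec4a1 (122921848 to 122934619), Clec4a3 (122952515 to 122969875), Clec4a2 (123106428 to 123143999), Clec4n (123229843 to 123247021) and Clec4d (123262111 to 123275265) on the plus strand, then Clec4e (123281789 to 123289870) on the minus strand. The lower levels thus lay on the left of the cluster and the higher levels on the right, with Clec4b2, listed at 0 in every library, between them. Clec4b1, between Clec4a3 and Clec4a2, was lower in Lyz2cre too, at 29.3, 33.5 and 16.1 TPM in Lyz2cre, 20.4 TPM in CD11ccre, and 66.5, 66.5 and 46.9 TPM in WT (log2 difference -1.20, adjusted p = 0.0498). That call held under 5 of 17 settings and ended with median-of-ratios scaling (-1.02, adjusted p = 0.0797), with the other rescalings and without any 1 of the 6 Lyz2cre and WT libraries (adjusted p = 0.0778 to 0.155). The flanking genes Foxj2 and Necap1 did not pass, at -0.51 (adjusted p = 0.112) and 0.10 (0.755). These neighbours were chosen after their values were seen.

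Clec12a (129342691 to 129365303, plus strand) and Clec7a (129461591 to 129472779, minus strand) lie in a further lectin cluster on the same chromosome. Cd69 and Clec1b, near Clec12a on either side, stood at log2 differences of -1.46 (adjusted p = 0.0125) and -1.38 (0.0743) in Lyz2cre against WT. Olr1, next to Clec7a, stood at 1.17 (adjusted p = 0.00950). Directions were therefore mixed within this cluster as well.

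**Figure D4:**
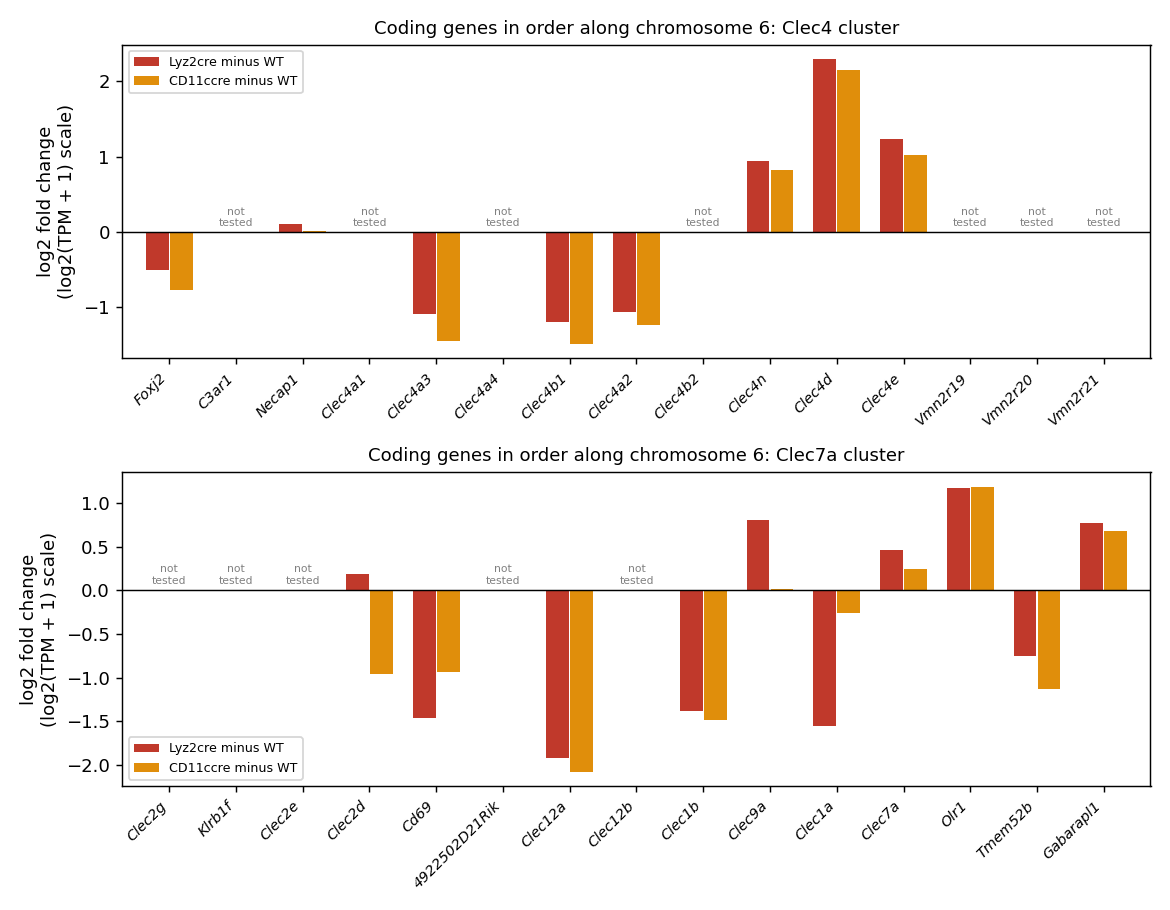
Log2 fold change on the log2(TPM + 1) scale (y axis) for coding genes in chromosomal order (x axis), in the Clec4 cluster above and the Clec7a cluster below, for Lyz2cre minus WT and CD11ccre minus WT. In the Clec4 cluster Clec4a3, Clec4b1 and Clec4a2 lie below 0 and Clec4n, Clec4d and Clec4e above it. Genes with a mean below 1 TPM were not tested.

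The genes most like each called receptor over the 7 libraries, by Pearson's r of log2(TPM + 1) among 7977 genes with a mean of at least 5 TPM, are given as a description, since the genotypes set most of the pattern. Clec4d went with Gpnmb (r = 0.998), at 586 to 675 TPM in Lyz2cre, 590 TPM in CD11ccre and 162 to 187 TPM in WT, and with the lysosomal protease gene Ctsd (r = 0.996). Clec4n went with Slc7a11 (r = 0.994), the cystine transporter, and Erich6 (r = 0.993). Clec5a went with Ctsk (r = 0.992) and Fabp5 (r = 0.990), and Cd93 with Ahnak2 (r = 0.997) and Cd300a (r = 0.995). On the lower side, Clec4a3 went with the ribonuclease genes Ear2 (r = 0.997) and Ear1 (r = 0.994), with Ear1 at 354 to 638 TPM in Lyz2cre, 322 TPM in CD11ccre and 2400 to 2689 TPM in WT. Clec12a went with Atp5j (r = 0.999) and Ramp1 (r = 0.992), and Clec4a2 with Celf4 (r = 0.995) and Polr2j (r = 0.994). Each receptor had 60 to 222 genes at r above 0.95.

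The adaptors and kinases behind the receptors gave no call in Lyz2cre before settings were varied. Of 22 tested adaptors, kinases and Card9 complex genes, 0 passed in either direction in Lyz2cre against WT by limma, and 4 had an unadjusted p under 0.05. Over all genes 6.76% were called and 24.6% had an unadjusted p under 0.05, so with 22 genes a count of 0 is near the background. Fcer1g, the FcRγ chain that carries Dectin-2, MCL and Mincle, had 1249, 1253 and 1210 TPM in Lyz2cre, 1142 TPM in CD11ccre, and 1377, 1404 and 1607 TPM in WT. Its Lyz2cre libraries were all below WT, and the log2 difference of -0.24 (95% interval -0.46 to -0.02), or -0.08 relative to the median of all genes, did not pass (adjusted p = 0.178). The interval for Tyrobp was -0.21 to 0.22 around 0.01, for Hcst -0.49 to 0.18 around -0.15, for Syk -0.40 to 0.11 around -0.14 and for Card9 -1.14 to 0.38 around -0.38. Card9 had 39.68, 43.26 and 34.83 TPM in Lyz2cre, 38.57 TPM in CD11ccre, and 68.45, 67.99 and 28.72 TPM in WT. It was called lower in Lyz2cre by limma without WT replicate 3 (log2 difference -0.79, adjusted p = 0.0437). The sign of the Hcst and Syk differences turned positive with median-of-ratios scaling, at 0.03 and 0.04.

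Among 17 tested C-type lectin-like receptors outside the 10, 2 were higher and 4 lower in Lyz2cre, where 2.17% of all genes were called higher and 4.60% lower. The higher pair was Thbd, encoding thrombomodulin (92.4, 70.6 and 82.6 TPM in Lyz2cre, 81.6 TPM in CD11ccre, 27.5, 32.2 and 35.6 TPM in WT, adjusted p = 0.00550), and Olr1, encoding the oxidized LDL receptor LOX-1 (adjusted p = 0.00950). The adjusted p of Olr1 was 0.0536 without Lyz2cre replicate 3. The lower genes were Colec12, a scavenger receptor (log2 difference -2.04, adjusted p = 0.00496), Cd69, Clec4b1 and Klra2 (-0.97, adjusted p = 0.0334). Klra2 was named after its values were seen, and its call held under 6 of 17 settings, ending with median-of-ratios scaling (-0.79, adjusted p = 0.0662), the other rescalings and 5 of the 6 libraries left out. Clec4b1 was as unsteady, as given above for the cluster. Cd69 did not pass without Lyz2cre replicate 1 (adjusted p = 0.0515), Lyz2cre replicate 2 (0.0548) or WT replicate 1 (0.0532).

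The remaining lists held at most 1 call each. Over all genes 6.76% were called and 24.6% had an unadjusted p under 0.05. A count of 0 or 1 call in lists of 7 to 11 rows is therefore near the background. Of 11 rows for inhibitory signalling genes (Cd37 has 2), 1 was lower, Ubash3b, encoding a phosphatase that restrains Syk (log2 difference -0.62, adjusted p = 0.0396). This call ended without any 1 of the 6 Lyz2cre and WT libraries, at adjusted p from 0.0690 to 0.133. It also ended with median-of-ratios scaling (-0.44, adjusted p = 0.112) and quantile normalization (-0.44, adjusted p = 0.139), and held under 5 of 17 settings. Of these 11 rows, 5 had an unadjusted p under 0.05. Of 10 tested response genes of the Syk and Card9 route, 1 was higher, the cytokine gene Il1b, at 132, 122 and 86.2 TPM in Lyz2cre, 60.1 TPM in CD11ccre, and 37.1, 59.9 and 35.2 TPM in WT (adjusted p = 0.0228). Il1b did not pass without Lyz2cre replicate 1 (adjusted p = 0.0939), Lyz2cre replicate 2 (0.0888), WT replicate 1 (0.0892) or WT replicate 3 (0.0747), with no filter on low values (0.0856) or without the trend (0.0520). Of the 10, 4 had an unadjusted p under 0.05. Besides Il1b these were Cxcl1 at 1.90 (adjusted p = 0.181), Ccl3 at 0.62 (0.151) and Egr1 at -1.18 (0.0664), none past the threshold. Tnf, Cxcl2 and Egr2 stood at 0.06, -0.50 and 0.06. Of 7 tested endogenous ligands, 1 was higher, Anxa1, an annexin that Dectin-1 binds on dying cells, at 908, 835 and 970 TPM in Lyz2cre, 966 TPM in CD11ccre, and 545, 504 and 545 TPM in WT (adjusted p = 0.00746). Of 9 tested myeloid transcription factors, 0 passed by limma, and 0 had an unadjusted p under 0.05.

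Together the 6 pathway lists gave 4 higher, 5 lower and 67 uncalled of 76 tested rows, with a median log2 difference of -0.11 beside -0.16 over all genes. The shares of all genes called were 2.17% higher and 4.60% lower. With median-of-ratios scaling the calls were 5 higher and 2 lower. In CD11ccre against WT they gave 3 higher (Thbd, Olr1, Anxa1) and 2 lower (Colec12, Malt1), with a median of -0.28 beside -0.29 over all genes, of which 0.895% were called higher and 1.99% lower. Malt1, a partner of Card9, was at -1.29 (adjusted p = 0.0397). These 5 calls were fragile. Over 16 alternative settings Colec12 was called in 13, Anxa1 in 10, Thbd and Olr1 in 8 each and Malt1 in 4. Thbd and Malt1 missed the threshold without any 1 of the 6 Lyz2cre and WT libraries, at adjusted p from 0.0523 to 0.0830 for Thbd and 0.0572 to 0.0985 for Malt1. Olr1 missed it without any of them but WT replicate 3 (0.0806 to 0.109), Anxa1 without any WT library or Lyz2cre replicate 1 (0.0590 to 0.0823), and Colec12 without WT replicate 1 or 2 (0.0520 and 0.0534).

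**Figure D5:**
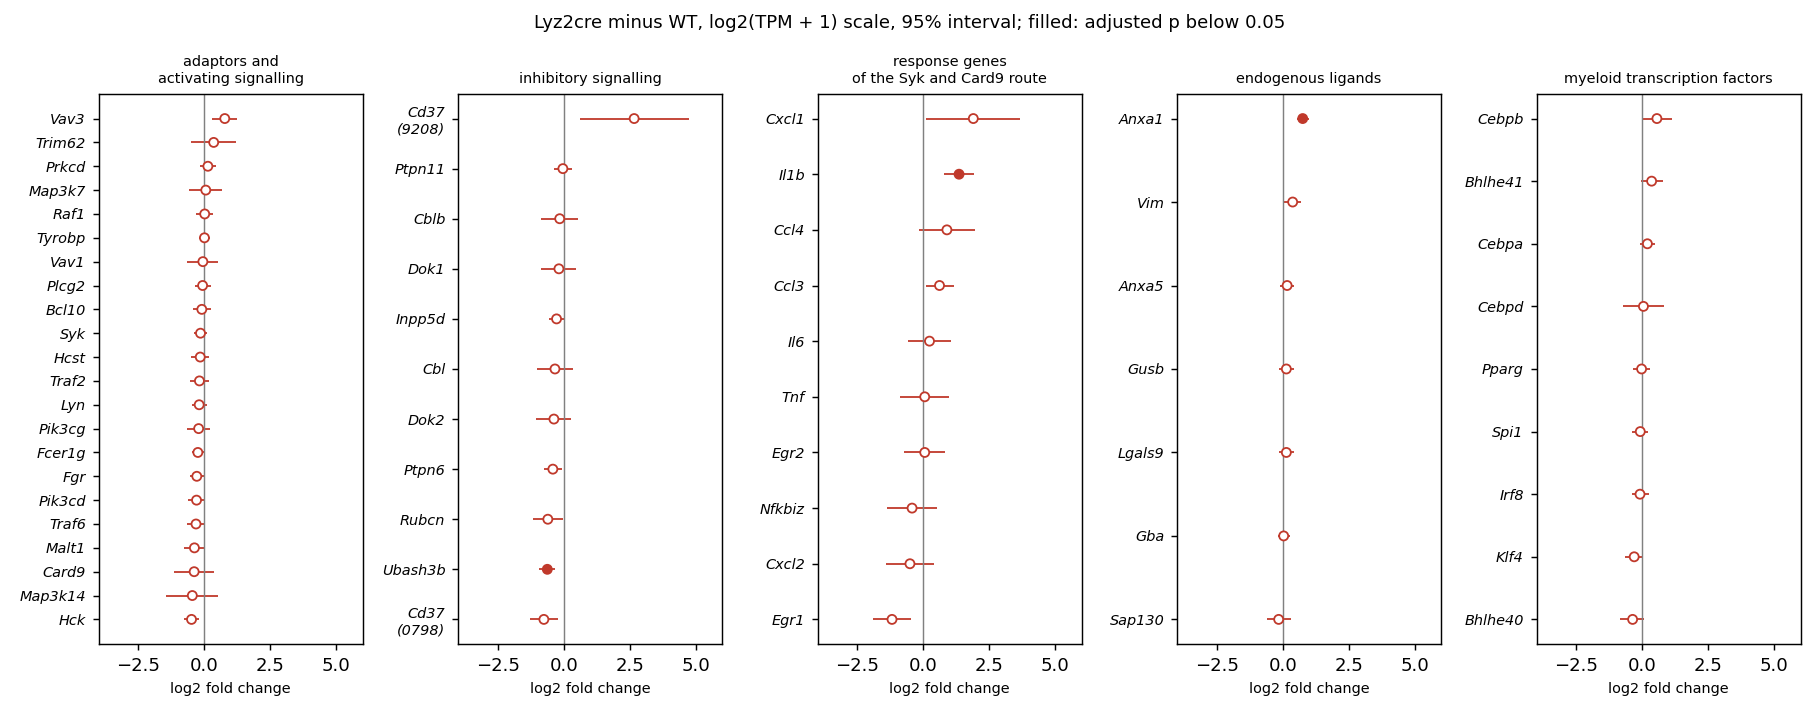
Log2 fold change on the log2(TPM + 1) scale (x axis) in Lyz2cre minus WT for the tested genes of 5 pathway lists, with 95% intervals and filled points for those past the threshold. The figures in brackets are the last digits of the 2 Cd37 gene IDs. Filled points are Ubash3b, Il1b and Anxa1, and none stands among the adaptors and kinases.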

How the data were processed

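Poly(A) RNA was made into directional NEBNext libraries and sequenced single-end, as the labels' protocols state. Tools listed in the submitters' processing notes were cutadapt 2.3, STAR 2.7.0d and RSEM 1.3.1, with mm10 as build. For the annotation and strand setting, the sources used here give nothing. The authors deposited 1 table of TPM for 47643 genes in 7 libraries, to 2 decimals. TPM in each library sums to 1000000, so a gain of abundant genes pushes down the values of the rest.

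Log2(TPM + 1) of the 11397 genes with a mean of at least 1 TPM was fitted with limma 3.58.1 in R 4.3.3. The fit held all 7 libraries, a coefficient per genotype and a mean-variance trend, with 4 residual and 3.35 prior degrees of freedom. Tests were two-sided, with Benjamini-Hochberg adjusted p below 0.05. The fold change understates the change of low genes, while ratios of mean TPM are plain. Identical values made up at most 1.79% between any pair of libraries over the genes tested.

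The 10 genes, the pathway lists and the marker lists were chosen with earlier results of these data known. Further genes were named by a rule taking up to 4 called genes per list, the adaptors Fcer1g, Tyrobp and Hcst, Syk and Card9, the targets, and the 2 genes most like each called receptor. Coordinates are GENCODE M21 (47224 IDs matched). Transcripts were compared for shared 75-base windows. Promoters are from RefSeq. The windows of Clec12a, Clec4a2 and Clec5a lie within or overlap the annotated spans of their own genes and are not shown. The window of a further Clec4a3 start also overlaps its gene and is not shown.

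Alternatives were pseudocounts of 0.1 and 5, no filter, a mean of at least 5 TPM, median-of-ratios scaling, quantile normalization, rescaling without mitochondrial genes, Ftl1, Fth1, Chil3 and Lyz2, no trend, robust fitting, a replicate block, and leaving out each library.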

Additional observations from a re-analysis of the deposited data

How the results depend on the processing

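For Lyz2cre against WT, 6 to 9 of the 9 tested genes were called under every alternative, and Clec4n, Clec4d, Clec5a, Cd93, Clec12a and Clec4a3 passed in all 17. Clec4e was called at a mean of at least 5 TPM, with median-of-ratios scaling, quantile normalization, robust fitting and the replicate block, and Clec7a with the first 4 of these and with rescaling. For CD11ccre against WT, 1 receptor gene was higher and 0 lower without the trend. With the replicate block 0 were higher and 0 lower. Leaving out a library gave 0 to 1 higher and 0 to 2 lower. Calls of the other pathway genes that were lower in Lyz2cre numbered 2 with no filter, median-of-ratios scaling, quantile normalization or rescaling, 3 without the trend, and 1 to 5 with a library left out. The replicate block gave 3. The cause of these shifts was not tested. Fewer residual degrees of freedom remain under the block or with a Lyz2cre or WT library left out.

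Over all genes, Lyz2cre against WT gave 247 higher and 524 lower. It gave 137 and 205 with no filter, 340 and 205 with median-of-ratios scaling, 316 and 213 with quantile normalization, 286 and 282 with rescaling, 189 and 247 without the trend, 171 and 219 with the replicate block, and 101 to 246 and 99 to 532 with a library left out. CD11ccre against WT gave 102 higher and 227 lower. It gave 300 and 193 with no filter, 104 and 346 at a mean of at least 5 TPM, 153 and 85 with median-of-ratios scaling, 122 and 79 with quantile normalization, 114 and 119 with rescaling, 61 and 61 without the trend, 8 and 13 with the replicate block, and 15 to 59 and 8 to 111 with a library left out. CD11ccre against Lyz2cre gave 5 higher and 8 lower, and 198 and 12 with no filter.

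Some uncalled differences changed sign. In Lyz2cre against WT, Tyrobp was at -0.04 to 0.05 with a library left out, and below 0 without WT replicate 1, WT replicate 2 or Lyz2cre replicate 2. Hcst was at 0.03 and 0.01, and Syk at 0.04 and 0.04, with median-of-ratios scaling and quantile normalization. In CD11ccre against WT these 2 settings gave Tyrobp 0.06 and 0.17 and Hcst 0.30 and 0.28. Hcst was there at 0.16 with rescaling, 0.15 with the replicate block, and -0.07 to 0.03 with a library left out. In CD11ccre against Lyz2cre, Clec4e was at -0.51 to 0.12 and Clec12a at -0.32 to 0.03 with a library left out, each above 0 only without Lyz2cre replicate 1, Clec4n at 0.01 with median-of-ratios scaling, and Cd93 at 0.03 with the replicate block.

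The labels do not say whether replicate numbers pair the libraries. Deviations of same-numbered Lyz2cre and WT libraries correlated at -0.0149, 0.0431 and 0.0656, and those of differently numbered libraries at -0.0975 to 0.0599. With 3 libraries per genotype such values cannot exclude pairing. With the replicate block the adjusted p of Clec4a2 in Lyz2cre against WT was 0.0545. TPM keep no depth, so what depth limits cannot be given.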

Other observations

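Among the Lyz2cre libraries, Clec4e varied more relative to its mean than the other tested receptor genes. Several response genes of its signalling route, picked after their values were seen, also fell from replicate 1 to replicate 3. Clec4e stood at 101, 60.7 and 41.8 TPM in Lyz2cre replicates 1, 2 and 3. In the same libraries Cxcl2 stood at 62.1, 39.7 and 22.2 TPM, Egr2 at 41.6, 32.2 and 18.6 TPM, Ccl4 at 10.3, 5.51 and 3.99 TPM, and Tnf at 37.4, 37.1 and 12.9 TPM. Tnf was thus level in replicates 1 and 2. Other genes of the route did not follow. Ccl3 was nearly flat at 41.9, 41.9 and 39.6 TPM, and Egr1 was highest in replicate 2, at 4.88, 6.64 and 2.47 TPM. A link between Clec4e and the route was not tested. In WT, Cxcl2 was at 35.8, 71.5 and 61.9 TPM while Clec4e was at 30.3, 27.3 and 22.2 TPM.

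Clec1a, which encodes a receptor for fungal melanin and lies beside Clec7a, was at 0.06, 0 and 0.40 TPM in Lyz2cre, 1.80 TPM in CD11ccre, and 3.79, 1.91 and 1.68 TPM in WT. It was picked after its values were seen. The log2 difference between CD11ccre and Lyz2cre was 1.3 by limma (adjusted p = 0.817), so the difference between the Cre lines did not pass.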
